A study of Mus musculus with 5 samples.

Results

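Fibroblast growth factor (FGF) signalling was followed through 10 genes as mouse embryonic stem (ES) cells became spinal motor neurons. They were the FGF ligands Fgf4, Fgf5, Fgf8, Fgf15 and Fgf17 and 5 genes that answer to the pathway, Spry1, Spry2, Spry4, Dusp6 and Etv5. All probes whose transcript accession belongs to one of these genes were taken, which gave 12 probes: 3 for Fgf8 and 1 for each of the other 9 genes, out of 19897 genes with a matched probe. Total RNA of wild-type male mouse cells was hybridised to 5 one-colour Agilent arrays, 1 for each stage. These were ES cells (ES), embryoid bodies after 8 hours of retinoic acid (RA) (Day2), after 1 day of RA (Day3) and after 2 days of RA (Day4), and the motor neuron culture labelled as 5 days after RA (Day7). The labels also give day 2 to day 5 of the protocol as the time when RA and a Sonic hedgehog signal were supplied, so the length of exposure behind Day7 is not settled by them. Of the 5 arrays, that of ES alone came from cells before induction, and time in culture cannot be told apart from exposure to the inducers. No FGF was named among the additions for these samples. With 1 array per stage there was no spread between replicates and no test could be made, so a gene was called raised or lowered when it changed at least 2-fold.

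FGFs are secreted ligands that bind receptor tyrosine kinases and drive the RAS, RAF, MEK and ERK kinase chain. In ES cells, FGF4 made by the cells themselves is the main trigger of ERK and prepares them to leave the naive state, and Fgf5 is the classic marker of the primed epiblast that follows. ERK activity raises its own brakes: Sprouty proteins (Spry1, Spry2, Spry4) block signalling below the receptor, and DUSP6 removes the activating phosphates from ERK. Etv5, with its relatives Etv1 and Etv4, is an ETS transcription factor induced by FGF. In the embryo, FGFs from the node and tail bud hold back neural differentiation of the forming spinal cord and oppose RA.

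Levels are given as quantile-normalized log2 signal, a scale on which a difference of 1 is a 2-fold change. They can be compared between arrays for one probe but not between probes. The scanner software's error model, the only error available, gave ±0.14 to 0.27 log2 units for the brightest probe of each of the 10 genes wherever it was well above background, with a median of 0.14. A dimmer Fgf8 probe reached 0.31 on Day4. It covers 1 array and not differences between cultures. Of the 10 genes, 8 were well above background on all 5 arrays, while Fgf17 was so on ES, Day2 and Day3, and Spry2 on ES, Day2 and Day4. No value of the 10 genes was saturated. In bulk RNA, fewer cells of a type and less RNA per cell cannot be told apart.

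The arrays differed in ways that touch these values. On Day2, 86.7% of the 55681 mouse probes were well above background, against 57.5% to 65.7% on the other arrays, and the 96 probes for spike-in RNA, of which 4.17% to 9.38% were above background elsewhere, reached 64.6%. Day7 was hybridised on another slide than the other stages, so slide and stage cannot be told apart there. All 5 markers of ES cells (Pou5f1, Nanog, Zfp42, Esrrb, Klf4) were above background on every array, and their median signal went from 12.39 in ES to 8.80 on Day7. The 3 primed epiblast markers (Otx2, Pou3f1, Dnmt3b) were above background on all 5 arrays too, with a median of 14.55 in ES and 11.66 on Day7. The 4 measured motor neuron markers (Isl1, Lhx3, Chat, Slc18a3) had a median of 7.87 in ES and 12.73 on Day7, where all 4 were above background.

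Fgf4 fell further than any other of the 10 genes by Day7, and nearly all of that fall was complete by Day3. Its signal was 14.31 in ES, 12.98 at Day2, 9.90 at Day3, 9.90 at Day4 and 9.38 at Day7. The levels of Day3 and Day4 differed by less than 2 times their combined error, and every other neighbouring pair in the order differed by more. Against ES, Fgf4 was lower by 2.51-fold on Day2, 21.4-fold on Day3 and 30.5-fold on Day7. The step from Day2 to Day3 alone was -3.09 log2 units. The probe nevertheless remained well above background in the motor neuron culture.

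Fgf5, the epiblast marker, was highest in ES cells and fell at the first time point. Its signal was 11.04 in ES, 8.49 at Day2, 6.43 at Day3, 6.10 at Day4 and 6.76 at Day7. ES and Day2 stood apart from each other and from the rest, whereas neighbours among Day7, Day3 and Day4 could not be separated by their error. The fall from ES was 5.85-fold on Day2 and 24.4-fold on Day3. The primed epiblast markers were also at their highest in ES: Otx2 had 12.55 there, 8.76 on Day2 and 6.10 on Day3. The other 2 genes of that list were under 2-fold at the first step, Pou3f1 at -0.94 and Dnmt3b at -0.76. Whether the share of such cells set the Fgf5 level was not tested.

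Fgf8 was the single gene of the 10 that was raised against ES at any stage, and only 1 of its 3 probes carried the rise. The brightest probe, A_55_P2101508, had 7.50 in ES, 9.72 at Day2, 7.53 at Day3, 7.40 at Day4 and 7.53 at Day7. Day2 alone stood out, 4.66-fold above ES, and the other 4 arrays could not be separated from each other. The probe A_55_P2108109, above background on all 5 arrays, had 6.22 in ES, 5.94 at Day2, 6.43 at Day3, 4.79 at Day4 and 6.01 at Day7. It was lowest on Day4, -1.43 log2 units from ES, and showed no peak on Day2. The probe A_55_P2101506 was above background on Day2 alone, at 3.92, below its value of 4.25 in ES, which was not above background, so no fold could be given. All 3 probes are assigned to the same Fgf8 transcript.

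The disagreement among the Fgf8 probes depended in part on the scaling. From ES to Day2 the brightest probe changed by 1.87 to 2.54 log2 units under the 5 scalings tried. The second probe changed by -0.28 with quantile normalization and by 0.75 when each array was shifted to its own 75th percentile, so its sign turned, and neither value reached 2-fold. The third probe, which gave no fold with quantile normalization, was up by at least 0.66 log2 units with the 75th percentile shift and at least 0.89 with no normalization. Averaged over its 3 probes, Fgf8 changed by 0.54, which is below the threshold. In absolute scanner units the signals of the 3 probes in ES and Day2 were 191 and 1112, 76.6 and 150, and 19.5 and 60.6. These units are not normalized, and without normalization 82.9% of all genes past 2-fold from ES to Day2 were raised. Pax2, taken as a marker of the midbrain-hindbrain isthmus where Fgf8 is made in the embryo, also had its highest value on Day2 (8.70, against 5.86 in ES and 5.69 on Day3). The isthmus marker En1 was not above background on any array, and En2 and Wnt1 were not raised on Day2 (-0.69 and -0.80).

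**Figure D1:**
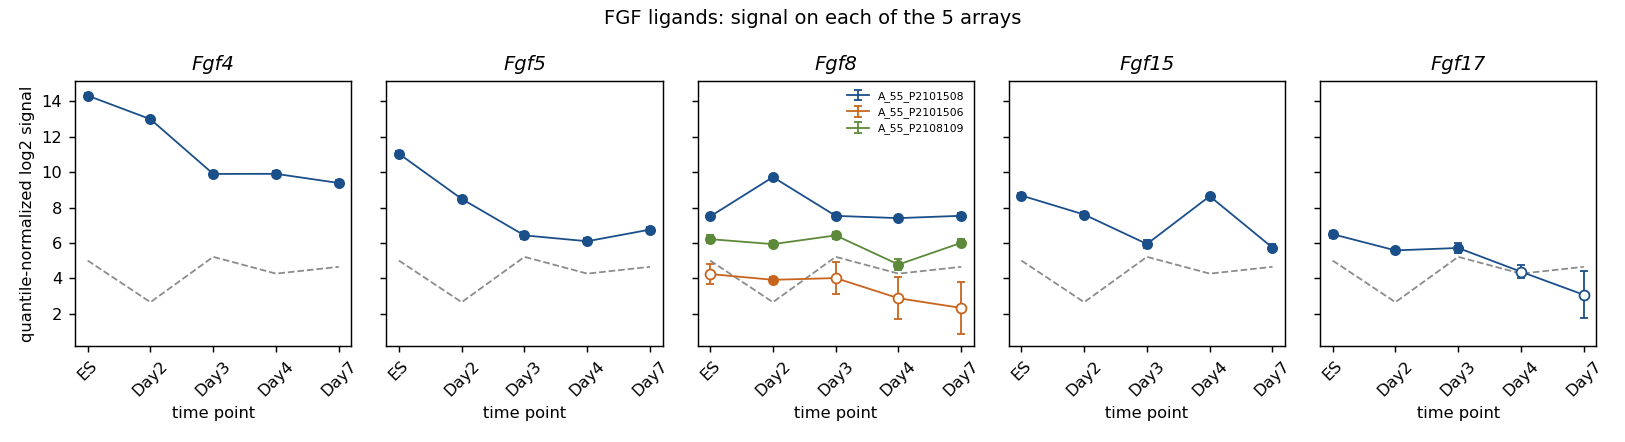
Quantile-normalized log2 signal (vertical axis) of the 5 FGF ligands on the ES, Day2, Day3, Day4 and Day7 arrays (horizontal axis, not to scale in time); bars are the scanner's error on 1 array, filled points are well above background, open points are not, and the dashed line is the lowest signal well above background on that array. Fgf4 and Fgf5 drop from 14.31 and 11.04 in ES to 9.90 and 6.43 on Day3, the brightest Fgf8 probe peaks at 9.72 on Day2, and Fgf15 is as high on Day4 (8.64) as in ES (8.68).

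Fgf15, an FGF of the early neural tube that is known as a target of hedgehog signalling there, alternated between high and low. Its signal was 8.68 in ES, 7.60 at Day2, 5.94 at Day3, 8.64 at Day4 and 5.74 at Day7. ES and Day4 could not be separated by their error, and neither could Day3 and Day7. The change was -2.73 log2 units from ES to Day3, 2.70 from Day3 to Day4 and -2.90 from Day4 to Day7. The progenitor factor Nkx6-1, which hedgehog signalling induces, went from 8.60 on Day3 to 12.73 on Day4, and Olig2 from 7.87 to 11.47. The other 2 neural progenitor markers did not rise at that step, with changes of -0.88 for Sox1 and 0.07 for Pax6. Olig2 was then at 7.35 on Day7, while Nkx6-1 was at 14.31. In ES, where Fgf15 was at 8.68, Olig2 was at 10.34 and Nkx6-1 at 6.72. Whether hedgehog signalling set the Fgf15 level was not tested. Fgf15 lies near Fgf4 on chromosome 7, with 1 lncRNA gene, Gm26793, between them in the RefSeq annotation, but the Fgf4 probe did not share the Day4 peak.

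Fgf17, a member of the Fgf8 subfamily, was dim throughout and was lost from view late. It had 6.50 in ES, 5.58 on Day2 and 5.72 on Day3, and was not well above background on Day4 and Day7. Day4 was at least 4.34-fold lower than ES, and Day7 at least 3.59-fold lower. The Day4 bound rests on the probe's own signal and the Day7 bound on the lowest signal well above background on that array, which was higher than the probe's own. With normexp background correction both bounds were under 2-fold (-0.81 and -0.80 log2 units). On Day2 the change was -0.91 with quantile normalization and 0.23 with the 75th percentile shift, so no direction could be given for that step.

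Among the 5 responding genes, Etv5 and Spry4 fell with closely similar time courses. Etv5 had 15.67 in ES, 14.47 at Day2, 12.94 at Day3, 12.51 at Day4 and 13.15 at Day7. Spry4 had 9.79 in ES, 8.12 at Day2, 6.40 at Day3, 6.19 at Day4 and 6.57 at Day7. Both were highest in ES, second on Day2 and lowest on Day4, although for Spry4 the levels of Day7 and Day3, and of Day3 and Day4, differed by less than 2 times their error. By Day4 Etv5 was 8.99-fold and Spry4 12.2-fold below ES. Each remained above background on Day7.

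Spry1 and Spry2, the other Sprouty genes, took different courses. Spry2 was level between ES (7.90) and Day2 (7.93) and then dropped: Day3 was not well above background and at least 6.41-fold below ES, Day4 had 5.25, and Day7 was again not well above background, at least 9.47-fold below ES. Between 8 hours and 1 day of RA the fall was at least 6.56-fold. Spry1 had 11.49 in ES, 10.52 at Day2, 9.47 at Day3, 10.59 at Day4 and 10.04 at Day7. It was lowest on Day3, 4.06-fold below ES, and rose by 1.12 log2 units to Day4. Spry1 and Fgf15 were the 2 genes raised from Day3 to Day4, and both had their Day2 and Day4 values above Day3. With no normalization the Spry1 rise was 0.66, and its change from Day2 to Day3, -1.04 here, was -0.99 with the 75th percentile shift.

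Dusp6, the ERK phosphatase, did not reach 2-fold in any comparison of quantile-normalized levels. It had 13.60 in ES, 13.99 at Day2, 13.27 at Day3, 13.13 at Day4 and 13.98 at Day7. The whole range was 0.85 log2 units, and no levels next to each other in rank differed by more than 2 times their error. Between successive stages, the changes from Day2 to Day3 (-0.71) and from Day4 to Day7 (0.85) were larger than 2 times their combined error of 0.20. Its change from ES to Day7 was 0.38 with quantile normalization and -0.28 with the 75th percentile shift, under which the median of all genes moved by -0.35. With no normalization its changes from ES to Day3 and Day4 were past 2-fold, at -1.24 and -1.88, while the medians of all genes were at -0.63 and -1.07. With no replicates, these values do not show that Dusp6 was constant.

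**Figure D2:**
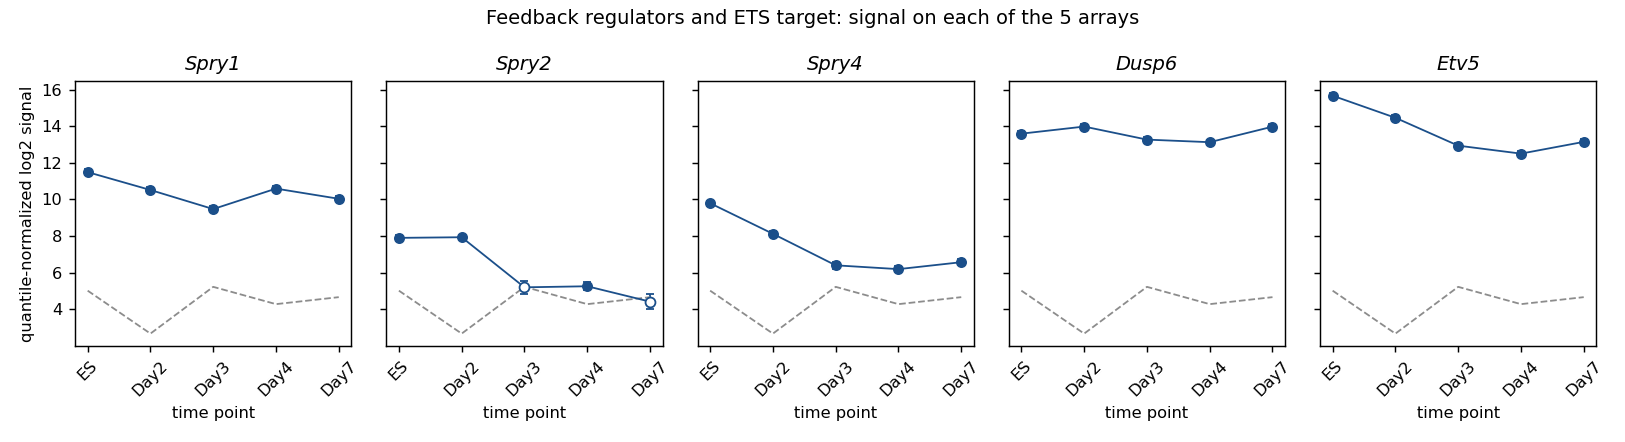
Quantile-normalized log2 signal (vertical axis) of the feedback genes Spry1, Spry2, Spry4 and Dusp6 and of the ETS factor gene Etv5 on the 5 arrays (horizontal axis, not to scale in time), drawn as for the ligands with scanner error bars, open points where not well above background, and the dashed detection line. Etv5 and Spry4 descend together to Day4 (12.51 and 6.19), Spry2 reaches the detection line on Day3, and Dusp6 stays between 13.13 and 13.99.

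RefSeq promoter windows (GRCm38.p6, 250 bases before to 50 after a transcription start) were searched for 6 of the 10 genes, 7 windows in all. Spry4 was left out of the search, and no window was available for Fgf8, Fgf15 and Fgf17. Those of Fgf4 and Etv5 are shown for a ligand and a target lowered at all 4 stages after ES, and that of Dusp6 for the gene that reached 2-fold at none. Capitals mark matches, on either strand, to the GC box GGGCGGG, the CCAAT box CCAAT or the ETS motif CGGAAG. No matches overlapped.
Fgf4, chr7:144861136-144861435, plus strand: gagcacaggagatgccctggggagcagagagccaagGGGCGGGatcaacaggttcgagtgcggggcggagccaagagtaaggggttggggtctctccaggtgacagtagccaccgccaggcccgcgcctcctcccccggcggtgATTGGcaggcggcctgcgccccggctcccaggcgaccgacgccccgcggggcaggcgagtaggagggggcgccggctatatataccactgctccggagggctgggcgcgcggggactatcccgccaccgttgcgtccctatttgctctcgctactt
Etv5, chr16:22439521-22439820, minus strand: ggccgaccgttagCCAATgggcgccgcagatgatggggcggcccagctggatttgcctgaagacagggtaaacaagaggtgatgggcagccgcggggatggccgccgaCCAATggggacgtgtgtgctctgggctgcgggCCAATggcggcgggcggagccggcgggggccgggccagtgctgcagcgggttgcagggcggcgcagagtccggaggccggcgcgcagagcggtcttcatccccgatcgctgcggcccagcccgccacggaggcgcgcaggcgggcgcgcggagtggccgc
Dusp6, chr10:99262981-99263280, plus strand: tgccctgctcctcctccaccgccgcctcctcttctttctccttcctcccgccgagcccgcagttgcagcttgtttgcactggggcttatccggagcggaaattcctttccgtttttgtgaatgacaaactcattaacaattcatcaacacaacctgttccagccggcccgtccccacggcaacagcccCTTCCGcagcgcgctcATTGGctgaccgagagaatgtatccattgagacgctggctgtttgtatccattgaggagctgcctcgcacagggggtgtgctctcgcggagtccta
The ETS motif CGGAAG was found in the Dusp6 window, starting 62 bases before the start site on the opposite strand, and in no other window of the 6 genes. Only these exact letters were searched, so shorter or looser ETS sites were not counted. The motif was held by 16.9% of all 32851 promoters. Etv5 had 2 windows, of which the upstream one is printed; it held 3 CCAAT boxes and the other, chr16:22438319-22438618, held 1. The Fgf4 window held 1 GC box and 1 CCAAT box. These motifs were present in 37.4% (CCAAT) and 25.6% (GC box) of all promoters. The Spry2 window held none of the 3 motifs. These matches describe letters in a window and say nothing of binding.

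At each stage after ES, between 5 and 8 of the 10 genes were lowered, a larger share than among all genes. From ES to Day2, 5 were lowered (Fgf4, Fgf5, Fgf15, Spry4 and Etv5) and 1 raised (Fgf8), while 11.3% of all 18315 genes compared were lowered and 8.82% raised. Spry1 (-0.98) and Fgf17 (-0.91) lay just under the threshold. From ES to Day3, 7 were lowered and 0 raised, against 10.2% and 14.2% of all genes. The 3 genes under 2-fold on Day3 were Fgf8, Fgf17 and Dusp6. From ES to Day4, 6 were lowered and 0 raised, against 14.2% and 15.4%. From ES to Day7, 8 were lowered and 0 raised, against 24.4% and 23.2%, and only Fgf8 (0.04) and Dusp6 (0.38) were under 2-fold. The median change of the 10 genes was -1.03, -2.71, -2.38 and -2.73 log2 units at the 4 stages in turn, where the median of all genes was 0.00, 0.06, 0.01 and -0.07. These 4 comparisons share the ES array.

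Between successive stages, the most genes were lowered between 8 hours and 1 day of RA. From Day2 to Day3, 8 of the 10 genes were lowered and 0 raised, against 7.76% and 13.0% of all genes, with a median of -1.69. Only Fgf17 (0.14) and Dusp6 (-0.71) were under 2-fold. The Fgf17 value turned to -1.25 with the 75th percentile shift and -1.99 with no normalization, and that of Dusp6 was -1.49 with no normalization, so neither call held under each scaling. From Day3 to Day4, 2 were raised (Fgf15 and Spry1), 1 was lowered (Fgf17, at least 2.53-fold) and 7 stayed under 2-fold, against 3.62% raised and 4.85% lowered among all genes. From Day4 to Day7, only Fgf15 was lowered and 0 were raised among the 9 genes with a value, against 18.1% and 17.8% of all genes, and Fgf17 had no value because it was not above background on either array. With no normalization, where the median of all genes was 1.06 at this step, 5 of the 9 passed 2-fold upward: Fgf5 (1.92), Fgf8 (1.39), Spry4 (1.62), Dusp6 (1.96) and Etv5 (1.81).

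**Figure D3:**
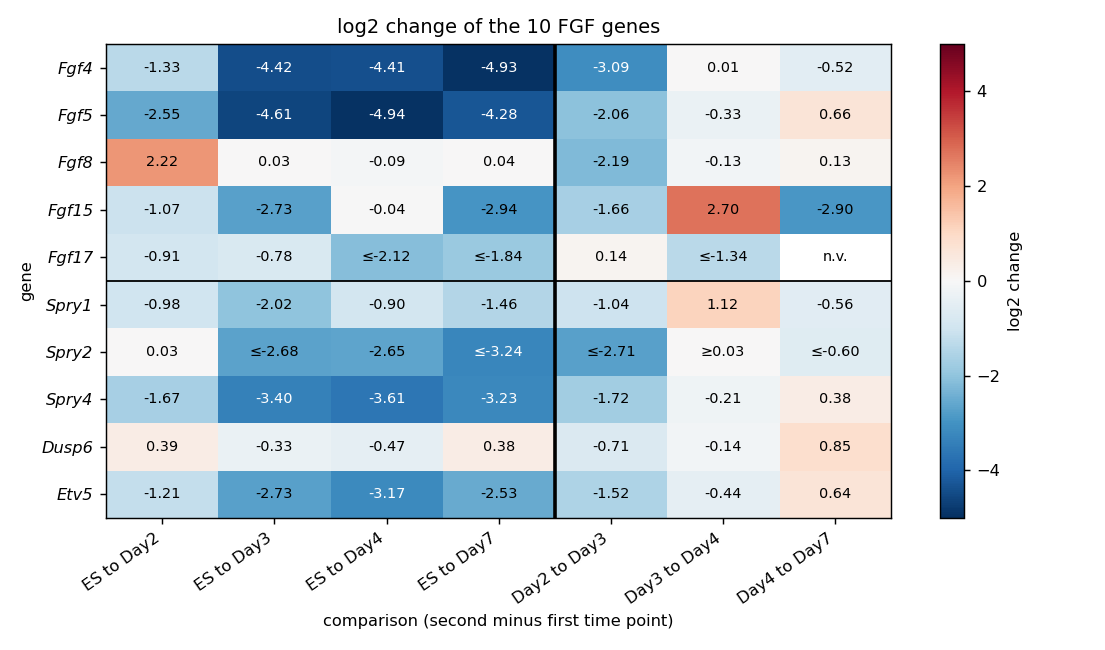
log2 change (second minus first time point; colour and printed value) of the 10 FGF genes (rows) in the 4 comparisons with ES (left of the line) and the 3 successive steps (right); the signs for at most and at least mark bounds where 1 array was not well above background, and n.v. marks no value. The Day2 to Day3 column is almost wholly blue, with Fgf4 at -3.09, and the red cells at or past 2-fold are Fgf8 on Day2 (2.22) and, from Day3 to Day4, Fgf15 (2.70) and Spry1 (1.12).

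The balance of all genes depended on the scaling. Of genes past 2-fold from ES to Day2, 43.9% were raised with quantile normalization, 70.2% with the 75th percentile shift and 82.9% with no normalization. The same shares were 62.6%, 25.5% and 3.41% for Day2 to Day3, 58.1%, 45.9% and 16.2% for ES to Day3, and 52.0%, 43.7% and 8.12% for ES to Day4. For the later steps, no normalization gave 20.1% in place of 42.7% from Day3 to Day4 (53.0% with normexp background correction) and 94.0% in place of 49.5% from Day4 to Day7. Without normalization the median of all genes itself moved, by as much as -1.07 from ES to Day4 and 1.06 from Day4 to Day7. All 39 member changes past 2-fold kept their sign under every alternative that gave a value, and 31 of them stayed past 2-fold under each of these. Among the 31, the Spry2 falls from ES to Day3 and Day7 and from Day2 to Day3 are bounds. They had no value when both arrays had to be well above background. The other 8 were the rise of Fgf8 to Day2 and its fall to Day3 (-0.53 with its probes averaged), the changes of Fgf15 from ES to Day2 (-1.07 here, -0.67 with the 75th percentile shift), of Fgf17 from ES to Day4 and Day7 and from Day3 to Day4 (-0.39 with normexp), and the fall of Spry1 to Day3 and its rise to Day4 when compared with the stage before.

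**Figure D4:**
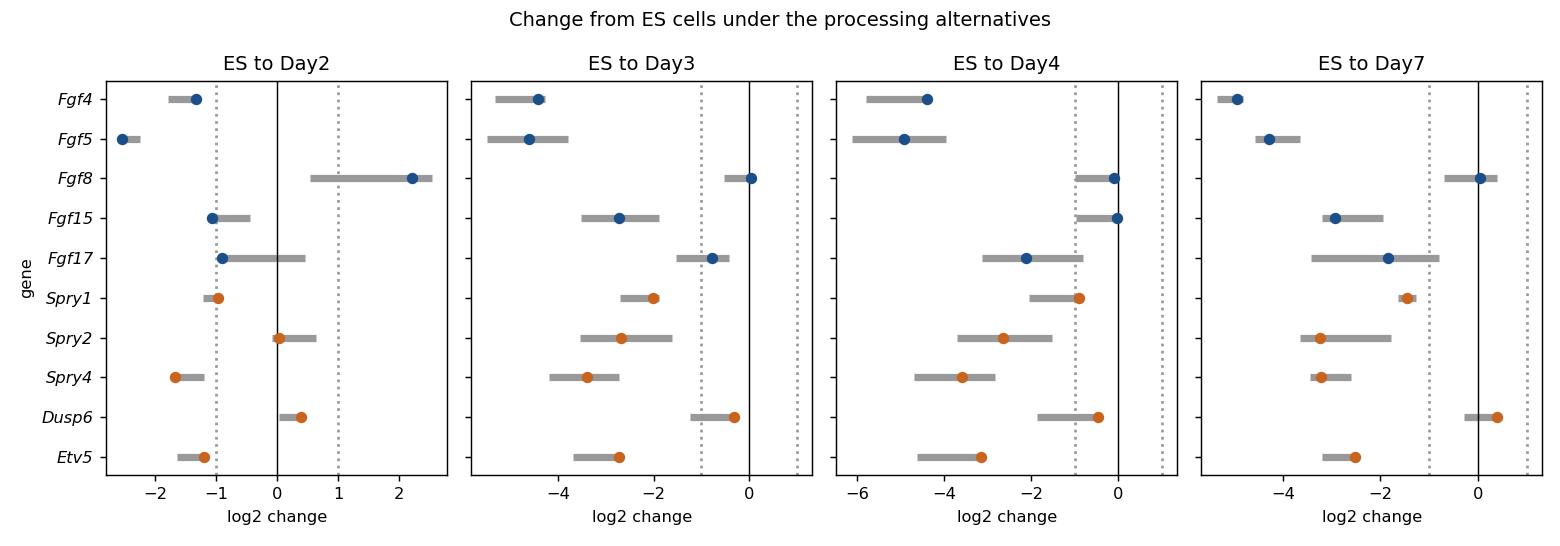
log2 change from ES (horizontal axis) of the 10 FGF genes (rows; blue points ligands, orange points targets, at the value in the text) with grey bars from the lowest to the highest value under the processing alternatives; dotted lines mark 2-fold. Fgf4, Fgf5, Spry4 and Etv5 stay below the lower 2-fold line in all 4 panels, whereas the bars of Fgf17 and Spry2 on Day2 and of Dusp6 on Day7 cross 0, as do those of Fgf8 on Day3 and Day7 and of Fgf15 on Day4, and that of Fgf8 on Day2 reaches down to 0.54.

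The rest of the pathway, a list of 52 genes all with a probe, is given by its counts. Against ES, 4 of 50 genes with a value were raised and 7 lowered on Day2, 8 and 5 of 42 on Day3, 7 and 8 of 45 on Day4, and 13 and 6 of 44 on Day7, where the median was 0.49. Among all genes, 8.82% were raised and 11.3% lowered on Day2, 14.2% and 10.2% on Day3, 15.4% and 14.2% on Day4, and 23.2% and 24.4% on Day7, so that the Day2 and Day4 counts of the list lay near those of all genes. On Day7 the 17 other FGF family genes, listed as other ligands and 10 of them with a value, gave 7 raised and 0 lowered. Fgf9, a secreted ligand that motor neurons are known to make, had 5.84 in ES and lay above it on every later array, by 1.18, 1.06, 2.45 and 5.07 log2 units. The first 2 of these fell under 2-fold in some scalings (0.88 and 0.50), the last 2 in none. Of the 4 genes of FGF homologous factors, which stay inside neurons and act on sodium channels, 3 were raised on Day7, Fgf13 by 3.95, Fgf14 by 2.44 and Fgf12 by at least 4.08, while Fgf11 changed by -0.79. The remaining raised genes on Day7 were Fgf18 (1.25), Fgf10 (1.03) and Fgf7 (1.02), with lowest values over the scalings of 1.10, 0.49 and 0.59. Of the 5 ligands described above, 0 were raised on Day7. With the 75th percentile shift, 5 of the 10 other family genes with a value were raised on Day7 and 0 lowered. Fgf7 and Fgf10 are ligands of one subfamily. On Day2 Fgf7 was raised by 2.30, and by at least 1.44 under every scaling, whereas Fgf10 changed by -1.87, which turned to 0.14 in another scaling.

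Several receptor genes were raised on Day3 and Day4. Of 6 receptor and co-receptor genes with a value, 4 were raised on Day3, 3 on Day4 and 2 on Day7, where 14.2%, 15.4% and 23.2% of all genes were raised, and 0 were lowered at any of these stages. With no normalization these counts were 2, 0 and 1, and 1 receptor gene was lowered on Day4. Fgfr3, a receptor of neural progenitors, was 0.31, 1.03, 1.59 and 3.90 log2 units above ES on Day2, Day3, Day4 and Day7. Fgfr2 changed by 1.40 on Day3, while Fgfr1, the main receptor of ES cells, reached 1.15 on Day7. Over the scalings the lowest values were 0.55, 0.63 and 3.65 for Fgfr3 on Day3, Day4 and Day7, 0.95 for Fgfr2 and 0.59 for Fgfr1. Fgfr4 was also raised on Day3, with 1.02 as its lowest value. Klb, a co-receptor of the endocrine FGFs, was raised by at least 1.73 on Day3 and Fgfrl1, a receptor-like protein with no kinase, by 1.55 on Day4, with lowest values of 0.83 and 0.36. Of the calls named here, that of Fgfr3 on Day7 and that of Fgfr4 on Day3 held under each scaling. The 16 genes of the signalling cascade between receptor and ERK were mostly under 2-fold, with 14, 15, 15 and 11 such genes at the 4 stages in turn. Mapk3, which codes for ERK1, was above the threshold on Day3 (1.33), Day4 (1.12) and Day7 (1.25), but no call held under every scaling: the lowest values were 0.53, -0.20 and 0.74. The larger changes of the cascade fell mostly on Day7. Shc1, an adaptor, changed by -2.26, Gab1, a docking protein, by -1.74, and Sos1, an exchange factor that activates Ras, by 2.16, and these 3 calls held under every scaling (nearest to 0 at -2.18, -1.53 and 1.36). Grb2, the adaptor that brings Sos1 to the receptor, was at 1.31 on Day7, with 0.65 as its lowest value. On Day2 the docking gene Frs3 changed by -2.10, or -0.75 at its smallest, and Sos1 by -1.20, a value that turned to 0.49 in another scaling.

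The 12 other feedback regulators and ETS targets had 4, 4, 5 and 4 genes lowered at the 4 stages, and 0, 2, 2 and 1 raised, of 11, 11, 11 and 12 with a value. The shares of all genes lowered were 11.3%, 10.2%, 14.2% and 24.4%, and of those raised 8.82%, 14.2%, 15.4% and 23.2%. Etv4, a close relative of Etv5, had 14.19 in ES, 13.00 at Day2, 10.92 at Day3, 10.76 at Day4 and 11.95 at Day7. Its course was high in ES and lowest on Day4, as for Etv5. Etv1 changed by -0.01 on Day2 and by -2.30 on Day3, so it dropped at the same step as Spry2. Dusp4, a nuclear ERK phosphatase, changed by -1.66, -2.26 and -2.24 on Day2 to Day4, unlike Dusp6, and stood at 0.69 on Day7. Spred3, an inhibitor of the cascade, changed by -3.40 on Day2, -1.85 on Day3 and -2.11 on Day4, and stayed past 2-fold at these stages under every scaling. On Day7 Spred3 was at -0.59, under 2-fold. Dusp9, another ERK phosphatase, was at -1.84 on Day7 and under 2-fold before. Dusp5, a nuclear ERK phosphatase, had -1.34, 1.20 and 1.78 on Day2, Day3 and Day4. Its Day2 value turned to 0.22 in another scaling, and the lowest values on Day3 and Day4 were 0.68 and 0.95, so none of these 3 calls held under each. On Day7 Dusp5 was not above background, with a bound of -1.68 that shrank to -0.57 in another scaling.

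**Figure D5:**
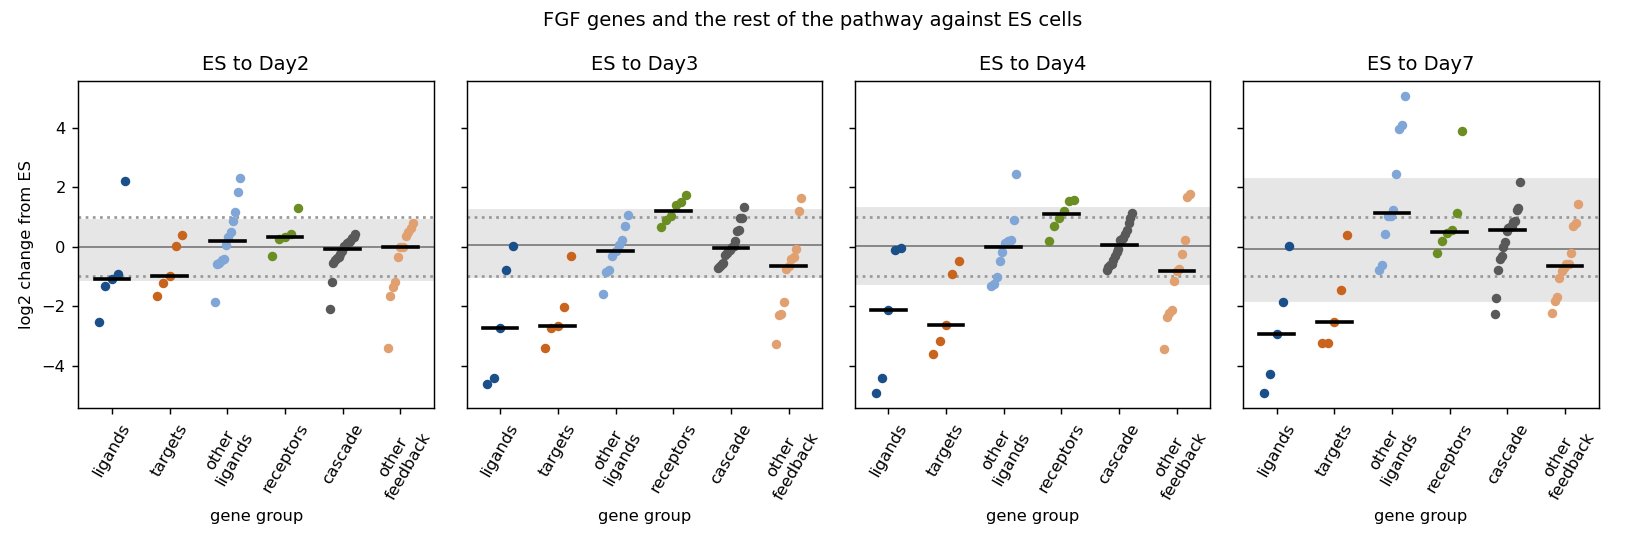
log2 change from ES (vertical axis) of each FGF pathway gene with a value, by group (horizontal axis: the 5 ligands and 5 targets described, then other ligands, receptors, cascade and other feedback genes), for Day2, Day3, Day4 and Day7; black bars are group medians, grey bands run from the 10th to the 90th percentile of all genes, dotted lines mark 2-fold. The described ligands and targets lie mostly below the band from Day3 on (medians -2.73 and -2.68 on Day3). The group of other ligands, which includes the FGF homologous factors, has a median of 1.14 on Day7.

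Genes with the most similar course were found by the Euclidean distance between levels centred over the 5 arrays, among 15164 genes above background on at least 3 arrays. For Spry4 the nearest gene of all was Etv5, at a distance of 0.56 log2 units (Pearson r 0.99 over 5 arrays), followed by Kcnh3 and Tcl1. Spry4 was in turn not among the 3 nearest genes of Etv5. For Fgf4 the nearest were Nr0b1, a nuclear receptor gene of ES cells, at 0.47, then Slc7a7 and Blnk. For Fgf5 they were Tcl1 at 0.71, Tdgf1, the Nodal co-receptor gene, at 0.87, and Spry4 at 1.06. The points share the same 5 arrays, so each distance also carries whatever sets those arrays apart.

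The remaining marker lists moved as follows, and their part in the results was not tested. The summed signal of the ES list, on the log2 scale, went from 15.22 in ES to 13.39, 12.91, 12.89 and 11.77, and that of the primed epiblast list from 17.28 to 16.44, 14.53, 13.38 and 12.87. Within the ES list, Zfp42 was 0.14 from its ES value on Day2 and -0.41 on Day3, and Nanog lay 0.78 above ES on Day4. The neuron list (3 of 3 above background throughout) lay between 12.21 and 13.55 before Day7 and at 17.98 then, and the neural progenitor list (4 of 4) between 10.80 and 14.44. Each sum is led by its brightest probes. The highest progenitor sum was on Day7, where Nkx6-1 was at 14.31, although Pax6 and Olig2 changed by -5.11 and -4.12 from Day4 to Day7. For primitive streak and mesoderm, 2 to 5 of 5 genes were above background, with sums of 7.86 to 9.63, and for endoderm 2 to 3 of 4, with sums of 7.78 to 11.17. The isthmus list had 3 of 4 above background on each array (10.43 to 11.31), the forebrain list 2 to 3 of 3 (7.81 to 9.92), the glial list 2 to 3 of 3 (8.43 to 12.36) and the floor plate list 1 to 2 of 2 (6.68 to 14.58), with Shh above background on Day7 alone.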

How the data were processed

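Total RNA was labelled with Cy3 and hybridised to 5 Agilent mouse arrays, 1 per stage (ES, Day2, Day3, Day4, Day7). The deposited scanner files hold, per spot, the processed signal intensity, its error and the background flags that the authors obtained with Agilent Feature Extraction 10.5.1. Spots that were controls or outliers were left out, and spots of one probe were averaged. Intensities were put on the log2 scale and quantile-normalized over the 5 arrays (limma 3.58.1, R 4.3.3), as the study's array legend names quantile analysis. The deposited table of log2 values held the log2 median signal per probe less the array's 75th percentile (99.3% to 99.5% of probes within 0.01) and served as an alternative. Its genes were not centred.

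Of 55681 mouse probes, 26300 matched 19897 genes through their accession (RefSeq names, GRCm38.p6), and 5339 genes had several probes, of which the one with the highest mean was used. A comparison needed a probe well above background on 1 of its arrays. Where the other array was not, a bound was set at the higher of that array's lowest signal above background and the probe's own value. The counting rules were tested on simulated data. Changes of at least 2-fold were called, with 1.5-fold and 4-fold as alternatives beside other scalings, filters, background correction (normexp, offset 50) and probe rules.

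The text names all 10 genes with each probe, pathway genes past 2-fold (up to 6 per group by size, or those on which a result turns), and the 3 nearest genes for up to 3 members. Members, lists and rules were chosen with earlier results of these data known. Single arrays allow no test and no estimate of replicate error, and the number of arrays limits the precision.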

Additional observations from a re-analysis of the deposited data

Results flagged for a closer look

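The 96 spike-in (ERCC) probes, which measure RNA that is not of the mouse, were outside every comparison. On Day2, 64.6% of them were well above background, against 4.17% to 9.38% on the other 4 arrays.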

How the results depend on the processing

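No paired analysis was possible because each stage had 1 array, and no array could be left out as a replicate. Of 69 changes of the 10 genes with a value, 0 reversed among those past 2-fold. Of the 30 under 2-fold, 12 had another sign or a value of 0 under some alternative. Those of Spry2 from Day3 to Day4 and from Day4 to Day7 reached 0 without turning sign. The count of genes raised from ES to Day2 was 1 and became 0 when the probes of each gene were averaged. The count lowered from ES to Day2 was 5 and became 1 with the 4-fold threshold. The calls in the pathway list over the 4 comparisons with ES numbered 58, 97 at 1.5-fold and 19 at 4-fold. For the pathway list, the 75th percentile shift turned the counts raised and lowered from 4 and 7 to 8 and 3 on Day2, lowered on Day3 from 5 to 8, and raised on Day7 from 13 to 8. With no normalization they were 9 and 3 on Day2, 3 and 15 on Day3 and 1 and 27 on Day4. The median change of the 10 genes from Day2 to Day3 was -1.69, and became -2.30 with the 75th percentile shift, -2.30 with the deposited values, -3.03 with no normalization and -1.37 with normexp. From Day3 to Day4 it was -0.13, and -0.48 with no normalization. From Day4 to Day7 it was 0.13, became 1.39 with no normalization and -0.19 both with the weaker detection flag and with no filter on dim probes, which add the dim Fgf17 value. The cause of the other shifts was not tested. From Day3 to Day4 the counts raised and lowered were 2 and 1 and became 1 and 1 with no normalization and 2 and 0 with normexp. From Day4 to Day7 they were 0 and 1, and became 5 and 1 with no normalization and 3 and 2 at 1.5-fold. With the weaker detection flag, and with no filter on dim probes, they were 0 and 2 at that step. From Day2 to Day3 they were 0 and 8, and became 0 and 10 with no normalization and 0 and 4 at 4-fold. Against ES, the counts on Day3, Day4 and Day7 stayed within 1.5 times. Signal over background limits Fgf17, Spry2 and the dimmer Fgf8 probes.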
